A study of Danio rerio with 19 samples.

Results

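The miR-34 family of zebrafish was represented by 6 array probes, chosen by the name in the probe annotation, out of 546 probes for known miRNAs and 7604 probes in all. They covered both arms of 3 hairpins, miR-34 (dre-mir-34_l and dre-mir-34_r in the annotation), miR-34b (dre-mir-34b_l and dre-mir-34b_r) and miR-34c (dre-mir-34c_l and dre-mir-34c_r). The array calls the arms left and right, the left arm being the one at the 5′ end of the hairpin. The name decided membership, but the family was put forward because the left arm of miR-34 was already known to be high in the adult tumour comparison of these arrays, so that comparison is described here without a test.

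The mature miRNA of a hairpin arm pairs with messenger RNAs mainly through its seed, the bases just after its 5′ end, and members that share a seed can share targets. In mammals miR-34a and the miR-34b/c transcript are switched on by p53, repress cell-cycle and survival genes and are counted among the tumour-suppressor miRNAs. In vertebrates miR-34b and miR-34c are processed from one transcript and are known for their part in multiciliated cells.

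The data were 19 two-colour arrays, each holding the RNA of HRASV12-expressing fish in the Hy3 channel and that of AB wild-type control fish in the Hy5 channel. The kita:Ras group carried Et(kita:Gal4TA, UAS:mCherry)hmz1 together with Tg(UAS:eGFP-HRASV12)io006, which drives the oncogene in melanocytes and notochord, and was measured at 3 (n = 4), 7 (n = 3) and 14 days post-fertilization (dpf; n = 3) and as adult melanoma (n = 3). The zic:Ras group (3 dpf, n = 3) carried Et(zic4:Gal4TA4, UAS:mCherry)hzm5 with the same UAS line, which drives it in the brain, and the HS-Ras group (3 dpf, n = 3) carried Tg(hsp70l:EGFP-HRASV12)io3. HS-Ras larvae and their controls were both kept at 37 °C for 30 min and lysed 6 h later. Each sample pooled 15 larvae at 3 and 7 dpf and 5 at 14 dpf, from different parents per replicate, whereas each adult sample was the tail fin of 1 fish, tumour-bearing for kita:Ras and normal for AB. No control fish carried the Gal4 driver alone, and the dyes were never swapped, so driver and dye effects cannot be told apart from those of the oncogene.

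The arrays lay on 3 slides. Slide 1 held 2 of the kita:Ras 3 dpf arrays and all of the 7 and 14 dpf arrays, slide 2 the other 2 kita:Ras 3 dpf arrays and the adults, and slide 3 the zic:Ras and HS-Ras arrays. Slide 2 was the dimmest: 49.0% to 60.1% of its known-miRNA spots exceeded background clearly in Hy3, against 74.5% to 89.5% on the other slides. No family spot was saturated.

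The sequences decide which members a probe can tell apart, so the 22 bases of each probe that bind the miRNA are shown 5′ to 3′, as given by the array annotation. Capitals mark the stretch that pairs with bases 2 to 8 of the miRNA arm.
miR-34 left arm: acaaccagctaagaCACTGCCa
miR-34b left arm: aatcagctaacaacACTGCCTa
miR-34c left arm: taatcaactaactgCACTGCCt
miR-34 right arm: gcggcagtatacttGCTGATTg
miR-34b right arm: gttggcagtatggtTAGTGATt
miR-34c right arm: cctggtagtgaggtTAGTGATt

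Each probe of 60 bases held 2 copies of this stretch, each followed by a spacer of 8 bases. Read as the miRNA itself, in DNA letters and with bases 2 to 8 in capitals, the left arms were the following.
miR-34: tGGCAGTGtcttagctggttgt
miR-34b: tAGGCAGTgttgttagctgatt
miR-34c: aGGCAGTGcagttagttgatta

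Positions were counted from the end of the probe's target stretch, and the 5′ end of the mature miRNAs was not checked against a miRNA database. Counted so, the left arms of miR-34 and miR-34c had the same bases 2 to 8. The left arm of miR-34b differed at bases 2 to 8 (AGGCAGT), and the letters GGCAGTG began at base 3 there. Whether this offset lies in the miRNA or only in the probe was not checked. No other known or predicted probe of the array held GGCAGTG at bases 2 to 8. At other positions these letters occurred in 16 predicted probes. The left arms of miR-34b and miR-34c matched at 18 of 21 bases once shifted by 1 base, and their right arms at 17 of 22, whereas the left arms of miR-34 and miR-34c matched at 11 of 22. No member shared its whole sequence with any other probe. Compared without a shift, the nearest non-family probe differed at 7 or more of the 22 bases, and shifted matches outside the family were not searched. The names of all 3 hairpins matched RefSeq genes (mir34a, mir34b and mir34c, assembly GRCz12tu), and mir34b and mir34c lay next to each other with no annotated gene between them, while mir34a lay on another chromosome.

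The left arm of miR-34 had the largest mean ratio of the family in the 6 comparisons, in adult melanoma. Its log2 ratio of Ras over control was 2.31, 2.48 and 3.20 in the 3 adult arrays, a mean of 2.66 ± 0.47 (SD, n = 3) or 6.32-fold. It was above background in both channels on all 3 arrays, and its duplicate spots differed by an SD of at most 0.11. Adult replicate 3, which gave the highest ratio, had 514 spots flagged as outliers, against 9 or fewer on every other array. Both spots of this probe were unflagged there, and without that replicate the mean was 2.39. Of the 346 known probes tested in the adult comparison it had the 4th highest mean ratio, and the 3 above it were the probes of the left arm of miR-204, a miRNA of pigment cells, which all bind the same sequence. The median known probe stood at -0.18, and 30.9% of the known probes were above 0 on all 3 arrays. When the spot signals were corrected by normexp and loess in place of the deposited ratio, the 3 values were 1.47, 1.66 and 2.23, lower but all above 0.

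In the larvae the same probe stayed near 0. It read -0.16, -0.03, 0.49 and 0.26 on the kita:Ras arrays of 3 dpf, -0.03, -0.07 and -0.26 on those of 7 dpf, and -0.24, -0.45 and -0.13 on those of 14 dpf. It read -0.49, -0.27 and -0.14 in zic:Ras and -0.26, -0.25 and -0.12 in HS-Ras larvae. Thus all 12 arrays of the 4 groups other than kita:Ras 3 dpf lay below 0, and no larval array reached the lowest adult value. Within a single group, a probe below 0 on every array was common: 28% of known probes at 7 dpf, 54.8% at 14 dpf, 27.5% with zic:Ras and 23.7% with HS-Ras. The share of known probes below 0 on all 12 arrays was not counted. In kita:Ras larvae at 3 dpf the sign followed the slide, with a mean of -0.09 for the pair on slide 1 and 0.37 for the pair on slide 2.

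**Figure D1:**
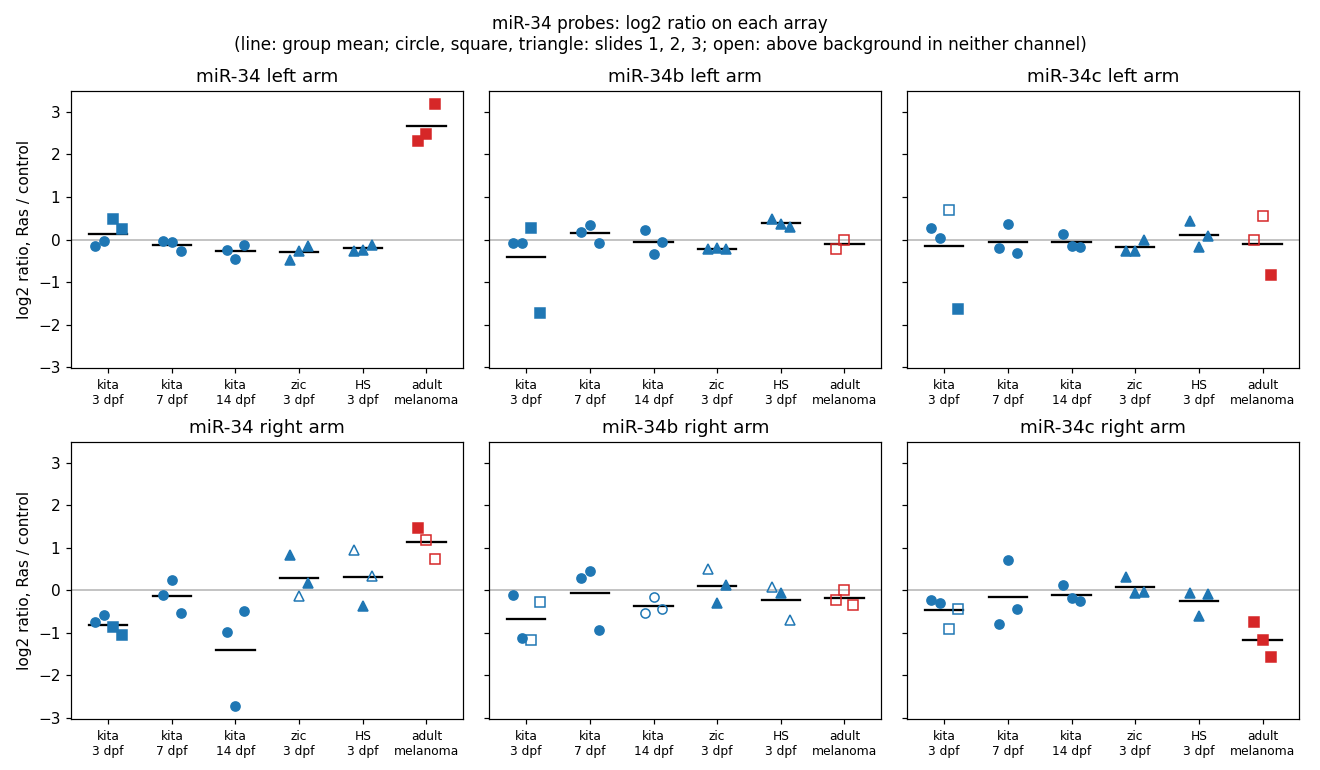
Log2 ratio of Ras over control (y axis) for each of the 6 miR-34 probes in the 6 groups (x axis), with 1 point per array and a line at the group mean. Marker shape gives the slide, and open markers are arrays on which the probe was above background in neither channel. The left arm of miR-34 lay between 2.31 and 3.20 in adult melanoma and at 0.49 or lower on every larval array.

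None of these larval means passed the test (limma on all larval arrays, adjusted p below 0.01 and fold above 1.2). The mean was 0.14 (95% interval -0.10 to 0.38, adjusted p = 0.488) in kita:Ras larvae at 3 dpf, -0.12 (-0.40 to 0.16, adjusted p = 0.885) at 7 dpf and -0.27 (-0.55 to 0.01, adjusted p = 0.133) at 14 dpf. It was -0.30 (-0.58 to -0.02, adjusted p = 0.289) in zic:Ras and -0.21 (-0.49 to 0.07, adjusted p = 0.481) in HS-Ras larvae. An F test found no difference of the ratio between 3, 7 and 14 dpf (adjusted p = 0.297) or between the 3 models at 3 dpf (adjusted p = 0.338), and these limma tests called 1.05% and 0.266% of the known probes. No member passed either test: unadjusted, 0 of 4 members tested over age (21.3% of known probes) and 1 of 3 tested over models, this one, had a p below 0.05 (14.1%).

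The levels of the separate channels set the adult fins beside 3 dpf larvae of the same slide. After normalization of the channels, the tumour-bearing fins read 10.20, 10.34 and 9.47 (log2) for the left arm of miR-34, and the normal fins 8.73, 8.68 and 7.24. The 2 kita:Ras 3 dpf samples on the same slide read 8.51 and 8.40 in the Ras channel, and their controls 8.23 and 8.37. The tumour-bearing fins were 1.55 above the larvae of their own channel (2.92-fold; median known probe 0.30), and the normal fins 0.08 below theirs (median known probe 0.39). Without adult replicate 3, whose normal fin was the lowest, the normal fins were 0.41 above the larval controls. Fins of 1 adult are set here against pools of whole larvae, so tissue and age cannot be told apart.

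**Figure D2:**
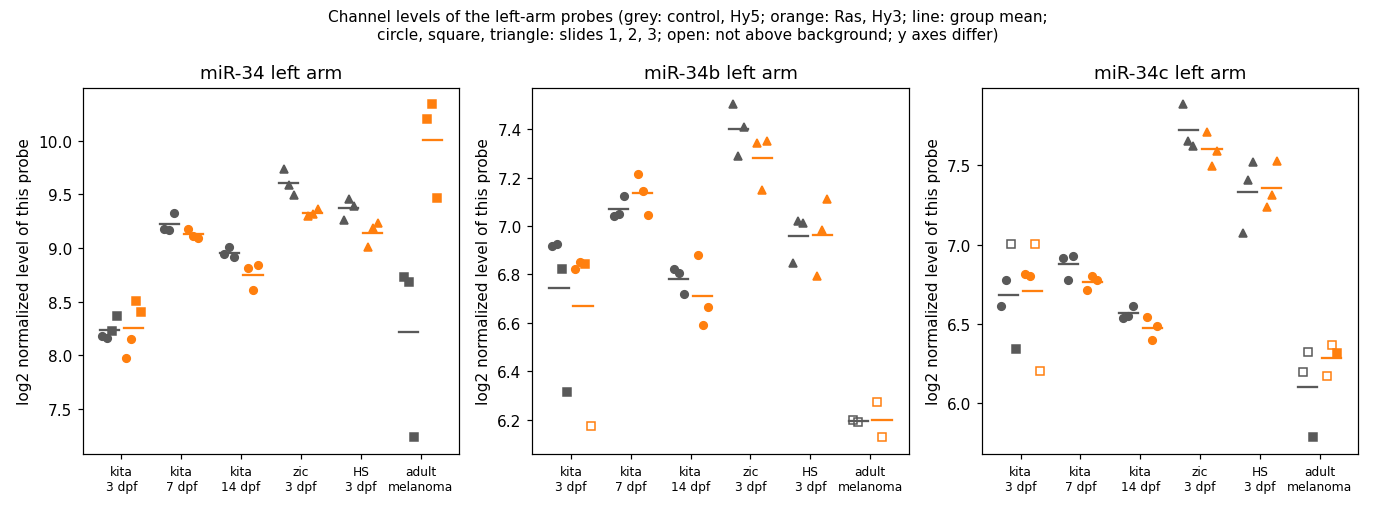
Log2 normalized level (y axis, different in each panel) of the 3 left-arm probes in the control channel (grey) and the Ras channel (orange) of each group, with 1 point per array and a line at the group mean. Open markers were not above background in that channel. For miR-34 the adult Ras channel (9.47 to 10.34) lies above the adult control channel (7.24 to 8.73), and the 3 dpf controls of the zic:Ras arrays (9.49 to 9.73) lie above those of the kita:Ras arrays (8.17 to 8.37).

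Probes of miRNAs linked to cell types also differed between the tumour-bearing and the normal fins. In bulk tissue a change in the number of cells of a type and a change of RNA per cell cannot be told apart. The miR-204 probes, which mark pigment cells, were all above 0 (6 of 6 tested), 3 of them passed the test as higher, and their median was 2.69. The 3 that passed bind the same sequence and read 3.98 to 4.17. The others read 1.39, 1.13 and 0.03. Their summed level was 15.06 to 15.59 in tumour-bearing and 11.41 to 11.97 in normal fins. All 17 tested probes of muscle miRNAs (miR-1, miR-133, miR-206, miR-499) were below 0 with a median of -1.09, and 2 passed as lower. Some of these probes bind the same sequence. One right-arm probe of miR-499 passed (-1.90), and another with the same sequence did not (-1.45, adjusted p = 0.0342 in limma). All 5 tested probes of the skin epithelium miRNAs miR-203 and miR-205 were below 0 with a median of -1.52, with adjusted p between 0.0141 and 0.0225 in limma, so that none passed. Of 10 tested blood miRNA probes 3 were above 0, the median was -0.91, and the left arm of miR-155 passed as lower (-2.56). The highest was the right arm of miR-223 (1.05), which did not pass. The summed level of the muscle list was 15.98 to 16.17 in tumour-bearing and 17.08 to 17.38 in normal fins, that of the skin epithelium list 12.19 to 12.93 and 13.84 to 14.09, and that of the blood list 12.42 to 13.05 and 13.05 to 13.47. In this comparison 8.38% of the known probes passed, 14 higher and 15 lower, against 14 and 10 after centring and 11 and 5 with normexp and loess. The part of the tissue make-up in the miR-34 ratio was not tested.

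**Figure D3:**
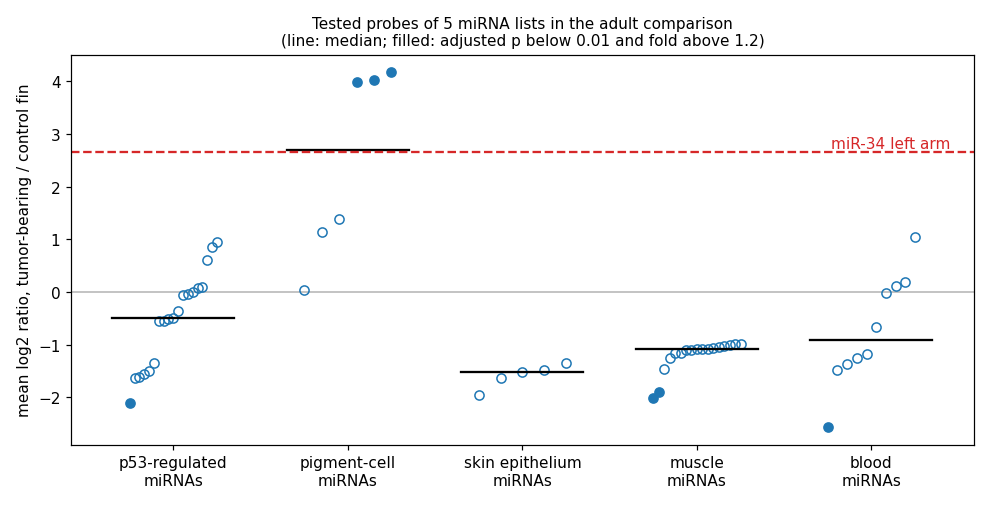
Mean log2 ratio of tumour-bearing over normal fin (y axis) for every tested probe of 5 miRNA lists (x axis), filled where the probe passed the test, with a line at each list's median. The dashed line is the left arm of miR-34 at 2.66, above every probe of the lists except 3 miR-204 probes.

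Other miRNAs placed under p53 control in mammals were mostly below 0 in the adults, as was the median known probe. A list of 32 probes for miR-15, miR-16, miR-107, miR-143, miR-145, miR-192, miR-194 and the miR-200 family had 19 tested members there, of which 5 were above 0. Their median was -0.50 (all known probes -0.18). No member passed as higher, and the left arm of miR-200c passed as lower (-2.10, adjusted p = 0.00532 in limma), as did 15 of the 346 known probes. The highest were right-arm probes of miR-107 (0.94 and 0.85) and the left arm of miR-15a-1 (0.60), which did not pass. The members of the miR-200 family, which are epithelial miRNAs, were the 6 lowest of the list (-2.10 to -1.35). The miR-145 probes, some of which bind the same sequence, read -0.56 to -0.36, and the remaining members -0.56 to 0.94. The share of known probes with a mean below 0 was not counted. In the larvae no probe of this list passed at 3 or 7 dpf in any model, with 21 to 27 tested. Only 0.781% to 2.02% of all known probes passed in those comparisons. At 14 dpf 5 of 30 passed as lower, where 20% of all known probes did (median -0.13, all known probes -0.16). Among the 5 were 2 probes of miR-145 with the same sequence.

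The right arm of miR-34 was dim, and it was the only member that passed the test in larvae. At 14 dpf its ratio was -0.99, -2.73 and -0.50, all below 0 and far apart from each other. The mean was -1.41 (95% interval -2.15 to -0.66, n = 3), or 2.65-fold lower in kita:Ras larvae (adjusted p = 0.00748), and 20% of the 500 known probes passed as lower at this age. The median of bright known probes was itself at -0.15 at 14 dpf, and after it was taken out the mean was -1.26 (adjusted p = 0.0107). The call was also lost with the replicate number as a block (adjusted p = 0.0132), with slide as a random block (adjusted p = 0.0160) and with this comparison fitted alone (adjusted p = 0.186). It had the 34th lowest mean ratio. Replicate 2 carried much of the value: without it the mean was -0.74 (adjusted p = 0.122), and without replicate 1 it was -1.61 (adjusted p = 0.0169). The probe read 6.36, 6.10 and 6.59 in the Ras channel and 6.52, 7.37 and 6.80 in the control channel, so that replicate 2 differed most in the control. With normexp and loess the ratios were -0.17, -1.27 and -0.20 (mean -0.55, adjusted p = 0.0113).

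**Figure D4:**
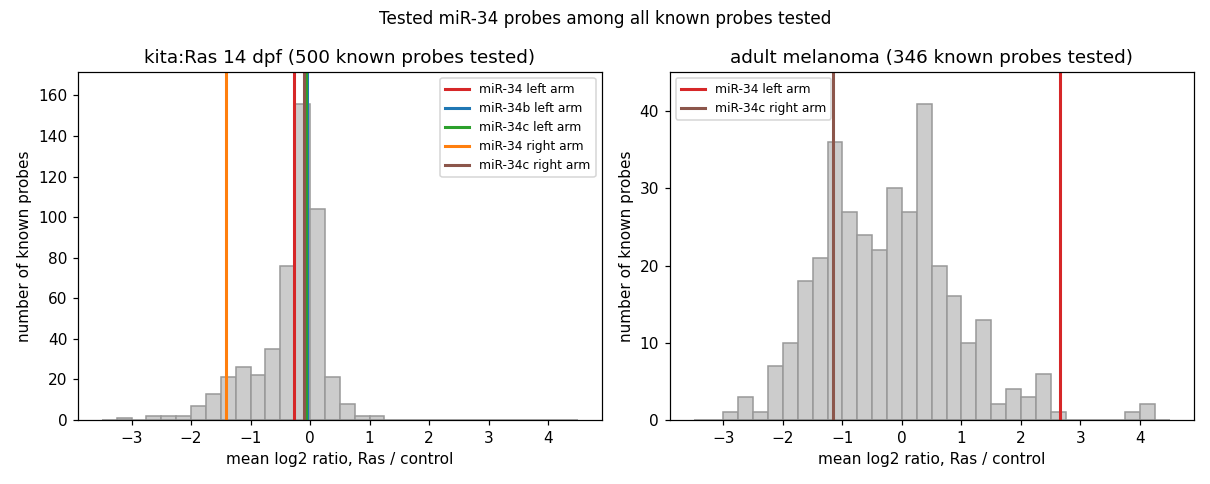
Number of known probes (y axis) by mean log2 ratio of Ras over control (x axis) at 14 dpf and in adult melanoma, with lines at the tested miR-34 probes. At 14 dpf the right arm of miR-34 (-1.41) stands apart from the other members (-0.27 to -0.06), and in the adults the left arm (2.66) lies near the upper end.

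The same arm was below 0 on all 4 arrays at 3 dpf, with values of -0.75, -0.57, -0.86 and -1.05, as were 25.5% of known probes. The mean of -0.81 did not pass (adjusted p = 0.123), and its Hy3 signal exceeded background on slide 1 only. At 7 dpf the values were -0.12, 0.23 and -0.52, on both sides of 0. The F test over the 3 ages gave an adjusted p of 0.254 for it. In zic:Ras and HS-Ras larvae it lay between -0.37 and 0.94, and its Hy5 signal exceeded background on only 1 of these 6 arrays.

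In the adults the right arm of miR-34 read 1.47, 1.19 and 0.74, the same sign as the left arm. Its Hy3 signal exceeded background on 1 array and its Hy5 signal on none, and its duplicate spots differed by SDs of 0.64 to 1.29. Its mean log2 level was 6.54 for tumour-bearing and 6.48 for normal fins. These near-background levels lay 1.04-fold apart, which sets no lower bound on the change. With normexp and loess the ratios were 0.12, 0.06 and -0.02, and thus of both signs. The arm opposite the bright one therefore gave no usable size for the adult change.

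The left arms of miR-34b and miR-34c gave no usable ratio in the adults. Neither was above background in the adult fins, except miR-34c on replicate 3, and the ratios were -0.21 and 0.00 for miR-34b, with no usable spot on replicate 3, and 0.00, 0.56 and -0.84 for miR-34c, whose last value was 0.53 with normexp and loess. Spots with a deposited ratio of exactly 0 made up 36.6% to 61.5% of each array, and among family probes they occurred on slide 2 only. The adult ratio of these arms was therefore not measured rather than unchanged.

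In larvae both probes were above background on most arrays, and neither passed in any group. For miR-34b the ratios were -0.07, -0.08, 0.27 and -1.73 in kita:Ras larvae at 3 dpf, and for miR-34c 0.27, 0.04, 0.70 and -1.63. Replicate 4 was the low one for both, and both were dim in its Ras channel. Their group means were -0.40 (adjusted p = 0.327) and -0.16 (adjusted p = 0.790).

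For miR-34b the deposited ratios differed in sign between zic:Ras and HS-Ras larvae. They were -0.23, -0.19 and -0.23 in zic:Ras and 0.49, 0.37 and 0.29 in HS-Ras larvae, with no overlap. Of known probes 27.5% were below 0 on every zic:Ras array and 29% above 0 on every HS-Ras array. The share with both was not counted. Neither mean passed (-0.22, adjusted p = 0.818, and 0.38, adjusted p = 0.542), nor did the F test over the 3 models (adjusted p = 0.431). With normexp and loess the HS-Ras values were -0.05, -0.04 and 0.10, so the separation rested on the deposited ratio. The left arm of miR-34c overlapped between these groups (-0.27 to -0.02 and -0.19 to 0.44).

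Over the 16 larval arrays the ratios of the left arms of miR-34b and miR-34c had a Pearson r of 0.87, the highest of the 15 pairs of members, and the other pairs lay between -0.50 and 0.48. Without kita:Ras 3 dpf replicate 4 it was 0.57, and the left arms of miR-34 and miR-34c then had the highest r (0.65, from -0.01 with it). The arrays share slides and dye orientation, and these 2 probes differ at only 3 of the 21 overlapping bases, so that a signal common to both cannot be told apart from binding of one miRNA to both probes.

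The right arms of miR-34b and miR-34c passed in no larval comparison in which they were tested. That of miR-34b was below background in the adults and at 14 dpf and was tested only in zic:Ras larvae (0.11, adjusted p = 0.970) and at 7 dpf (-0.06, adjusted p = 0.979). That of miR-34c exceeded background in both channels on all 6 zic:Ras and HS-Ras arrays. It was tested in zic:Ras (0.07), HS-Ras (-0.25), 7 dpf (-0.17) and 14 dpf (-0.11) larvae and did not pass in any (adjusted p between 0.663 and 0.970). In the adults it read -0.75, -1.16 and -1.57, opposite in sign to miR-34 (44.8% of known probes were below 0 on all 3 arrays). The control fins were above background on all 3 arrays (mean level 6.48) and the tumour-bearing fins on none (6.37). These levels lay 1.08-fold apart and the mean deposited ratio was 2.23-fold lower, so the size of the difference is uncertain.

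By count, 0 of 4 tested members passed in kita:Ras larvae at 3 dpf, where 0.781% of known probes did, and 1 had an unadjusted p below 0.05 (22.4% of known probes). In zic:Ras larvae 0 of 6 passed (1.1%), 1 of them with an unadjusted p below 0.05 (15.4%). In HS-Ras larvae 0 of 4 passed (1.77%) and at 7 dpf 0 of 6 (2.02%), none of them with an unadjusted p below 0.05 (17.7% and 11.5%). At 14 dpf 1 of 5 passed, against 21.4% of the known probes, and the same 1 had an unadjusted p below 0.05 (39.8%). These counts come from limma, and no other test was run across the probes.

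The Hy5 channel also gave the normal course of the family, because the controls of the kita:Ras arrays on slide 1 were AB larvae of 3 ages. The left arm of miR-34 read 8.18 and 8.17 at 3 dpf, 9.18, 9.16 and 9.32 at 7 dpf, and 8.95, 9.01 and 8.92 at 14 dpf. The ages did not overlap, and both later ages were above 3 dpf. The share of known probes without overlap between ages was not counted. The difference between 7 and 3 dpf was 1.05 on the log2 scale (95% interval 0.41 to 1.69, 2.07-fold, adjusted p = 0.00951) and passed, as did 22.1% of the 488 known probes in this direction. That from 7 to 14 dpf was -0.26 (adjusted p = 0.511), and that from 3 to 14 dpf 0.78 (adjusted p = 0.0451), and neither passed at 0.01. Of 5 members tested, none passed from 7 to 14 dpf or from 3 to 14 dpf in limma, and 2 and 1 had an unadjusted p below 0.05 (39.4% and 48.7% of known probes).

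The call at 7 dpf was close to the threshold. It was lost (adjusted p between 0.0127 and 0.0526) when any 1 of the 7 control samples was left out. The difference was between 1.00 and 1.08 each time. Within slide 1 alone the call was kept (adjusted p = 5.73e-06). There the differences from 7 to 14 dpf (-0.26, adjusted p = 0.00587 in limma) and from 3 to 14 dpf (0.78, adjusted p = 1.91e-05) passed as well. The fit of all controls, heat-shocked ones included, held 1 spread per probe. For this probe the SD was 0.85 in the adult fins, against 0.09 at 3 and at 7 dpf and 0.05 at 14 dpf. Its adjusted p for the larval ages thus took in the spread of the adult fins. AB larvae of 3 dpf also differed between slides by more than the 1.05 between 7 and 3 dpf. They read 8.17 to 8.37 on slides 1 and 2, and 9.49 to 9.73 on slide 3, where they were the controls of the zic:Ras larvae. The mean on slide 3 was 1.43 above that on slide 1 (median known probe 0.19), and 7.49% of 347 known probes moved as far or farther. Slide and clutch cannot be told apart here.

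The left arms of miR-34b and miR-34c differed less from 3 to 7 dpf. The left arm of miR-34b read 6.92 on average at 3 dpf on slide 1, 7.07 at 7 dpf and 6.78 at 14 dpf, and that of miR-34c 6.70, 6.88 and 6.57. The differences between 7 and 3 dpf were 0.15 (95% interval -0.10 to 0.40, adjusted p = 0.306) and 0.18 (-0.22 to 0.58, adjusted p = 0.435). Those between 14 and 7 dpf were -0.29 (adjusted p = 0.0521) and -0.31 (adjusted p = 0.189), the same direction as for miR-34. The fit for miR-34b lacked adult replicate 3. The right arm of miR-34 differed by -0.31 from 3 to 7 dpf (adjusted p = 0.166) and by 0.35 from 7 to 14 dpf (adjusted p = 0.116), and it passed at -1.41 and 1.37 when the scanner's processed signal was used instead. At the 3 ages 36.1%, 18.9% and 36.4% of known probes passed from 3 to 7, 7 to 14 and 3 to 14 dpf.

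Heat shock was the last comparison within the controls, HS-Ras controls against zic:Ras controls at 3 dpf on slide 3. All 3 left arms were lower after heat shock within this slide, and none of the 5 members tested passed. When the unshocked kita:Ras controls of the other slides were added, the signs for miR-34 (0.55) and miR-34c (0.21) turned and miR-34b stood at -0.07. For miR-34b the heat-shocked controls read 6.85, 7.02 and 7.01 and the unshocked ones 7.50, 7.29 and 7.41, with no overlap (-0.44, 95% interval -0.67 to -0.22, adjusted p = 0.0630). The left arms of miR-34c (7.073 to 7.520 heat-shocked, 7.625 to 7.886 unshocked) and miR-34 (9.26 to 9.46 and 9.49 to 9.73) did not overlap either. Nor did the right arm of miR-34c (6.65 to 6.74 and 6.77 to 6.83). The other right arms overlapped. How often known probes lay apart in this way was not counted. For the left arm of miR-34c the difference was -0.39 (adjusted p = 0.441) and for that of miR-34 -0.23 (adjusted p = 0.998). No known probe passed in this comparison (0%), and 8.81% had an unadjusted p below 0.05, among them the left arms of miR-34b and miR-34c.

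The 5 known probes whose ratios over all 19 arrays were most like those of the left arm of miR-34, of 307 eligible, were the left arms of miR-181a-2 (Pearson r = 0.97), miR-181c (0.96), miR-138 (0.96) and miR-181b-2 (0.96) and the right arm of miR-153b (0.96). Their adult means lay between 1.37 and 2.45. Over the 16 larval arrays alone the same correlations were 0.38, 0.07, 0.12, -0.15 and 0.65. The likeness to the first 4 thus rested on the 3 adult arrays, and the arrays share slides and dye orientation.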

How the data were processed

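The deposited files were Agilent Feature Extraction output of custom 2-colour miRNA arrays; per the file headers the version was 10.7.3.1, and 9.5.3.1 per the submitters' processing notes. The authors deposited a log10 ratio of control (Hy5, red) over Ras (Hy3, green) and the spot intensity of both channels for each array, and a series table whose log10 values were identical to that ratio. Ratios were turned to log2 Ras over control and averaged over the 2 spots of a probe without outlier spots. A probe was tested where at least 1 channel clearly exceeded background on most arrays of a group. Group means were tested with limma 3.58.1 (R 4.3.3) in 1 fit of the 16 larval arrays on the 2826 known and predicted probes tested, adjusted by Benjamini-Hochberg over the known ones, and the adults in a fit of their own. A call needed an adjusted p below 0.01 and a linear fold above 1.2. The study's methods give 1.2 as a log2 fold change, which was tried as an alternative, and took p-values from the error model of other software. Channel levels came from the median spot intensity after normexp (offset 50), loess and Aquantile, and were tested over all 19 controls with slide 2 as a fixed block. Folds of channel levels compared the mean levels of the 2 channels, also where 1 of them was not above background. The number of arrays limits the precision. Replicates came from different parents or fish.

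The same-numbered arrays of different groups did not deviate together (correlations -0.34 to 0.34, median -0.03), so numbers were not taken as pairs. All 6 members were named, the 5 probes most like the left arm of miR-34, and the largest changes of 5 lists of miRNAs. Members and lists were chosen with earlier results of these data known. Alternatives were the background correction, centring, filters, thresholds, samples fitted, slide and leaving out arrays; the spread from known probes only, and the member correlation without 1 array, were added after seeing the data. The fits were tested on simulated data. Sequences came from the array annotation. Gene names, chromosomes and neighbours came from RefSeq (GRCz12tu), whose start positions were used only to put the genes in order. Predicted hairpin probes were used for the fit and for sequence searches only.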

Additional observations from a re-analysis of the deposited data

Results flagged for a closer look

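Among 18 sets of values, each of a member on the 4 kita:Ras 3 dpf arrays, 1 held a single distant sample: the Ras-channel level of the left arm of miR-34b was 6.17 on replicate 4, far below the other 3 arrays (6.82 to 6.85), and it was not above background there. Chance flags about 1 in 20 such sets.

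Some groups lay on opposite sides of 0 on every array, which was not tested as a difference or counted over the known probes. The adult ratio of the left arm of miR-34 was already known to be high when the family was put forward. For the left arm of miR-34 the adult mean log2 ratio was higher than that of kita:Ras larvae at 7 dpf by 2.78, at 14 dpf by 2.93, of zic:Ras larvae by 2.96 and of HS-Ras larvae by 2.87. For its dim right arm the adult mean was higher than at 3 dpf by 1.94 and at 14 dpf by 2.54. For the left arm of miR-34b the difference of zic:Ras minus HS-Ras larvae was -0.60, and the F test over the 3 models did not pass (adjusted p = 0.431).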

How the results depend on the processing

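No value that passed changed its direction under any alternative run. The adult mean of the left arm of miR-34 was 1.79 with normexp and loess and 2.39 to 2.84 when each adult array was left out in turn. At 14 dpf the count of members called fell from 1 to 0 with normexp and loess, with centring on bright known probes, with slide as a random block, with p-values adjusted over known and predicted probes, and with each comparison fitted alone. It was 0 to 1 when each array was left out, 0 without replicate 1 (adjusted p = 0.0169) or 2. In the other 4 larval comparisons the count stayed at 0 under all alternatives run.

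With the replicate number as a block the right arm of miR-34 at 14 dpf had a mean of -1.49 and an adjusted p of 0.0132, so the count was 0. The block changed no other call of a member, but it moved several means of the left arms in limma. For miR-34b the mean went from -0.22 to -0.66 in zic:Ras larvae (adjusted p = 0.0393) and from 0.38 to -0.06 in HS-Ras larvae. At 14 dpf it went from -0.06 to -0.50 for miR-34b (adjusted p = 0.0239) and from -0.06 to -0.55 for miR-34c (adjusted p = 0.0536).

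In control fish the counts were 2, 1 and 1 for 7 against 3, 14 against 7 and 14 against 3 dpf with the processed signal scaled to its 75th percentile, where the right arm of miR-34 was called at -1.41 and 1.37 in the first 2. On slide 1 alone 3 members were called for 14 against 7 dpf and 1 for 14 against 3 dpf, and 1 for the latter at an adjusted p below 0.05. Leaving out controls gave 0 for 7 against 3 dpf. The causes were not tested. At 14 dpf 100 known probes were called lower and 7 higher, against 62 and 11 after centring, and their total was 25 without replicate 2, 54 without replicate 1, 64 with slide as a random block, 51 with 1.2 read as a log2 change and 188 when adjusted over all probes. In the other larval comparisons, in the order kita:Ras 3 dpf, zic:Ras, HS-Ras and 7 dpf, the totals of 3, 5, 8 and 10 rose at most to 27, 31, 41 and 61, and no known probe was called in any larval comparison fitted alone. With normexp and loess the zic:Ras calls were 6 higher and 17 lower (from 4 and 1), the HS-Ras calls 20 and 6 (from 5 and 3) and the 7 dpf calls 22 and 8 (from 9 and 1). In control fish the totals of 176, 95 and 180 for the 3 age comparisons reached at most 267, 162 and 246, and the second fell to 34 with no slide block. Right arms near background limit what these arrays can show.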
